A study of Mus musculus with 4 samples.

Results

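The 10 genes described here encode nuclear hormone receptors, transcription factors that bind DNA through zinc fingers and, in many cases, change their activity when a small lipid-soluble ligand binds. They were chosen by name from the 45706 features of the count matrices: the corticosteroid receptors Nr3c1 and Nr3c2, the thyroid hormone receptors Thra and Thrb, the retinoid-related orphan receptors Rora and Rorb, the estrogen-related orphan receptor Esrrg, the retinoic acid receptor Rarb, and the COUP-TF genes Nr2f1 and Nr2f2. All 10 were found in the matrices and passed the filter on low counts. Another 39 nuclear receptor genes served as the list to compare them with.

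Corticosterone crosses the cell membrane and binds the glucocorticoid and mineralocorticoid receptors, which wait in the cytoplasm with Hsp90 and its partners until a ligand moves them to the nucleus. The thyroid hormone and retinoic acid receptors differ from them in that they sit on DNA as partners of the retinoid X receptors, where they hold corepressors without a ligand and coactivators with one. The hippocampus is known for carrying both corticosteroid receptors, and its dentate gyrus keeps making granule cells from radial glia-like stem cells through adult life.

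The nuclei came from male and female mice on a C57BL/6J background that carried a tamoxifen-inducible Cre and the CAG floxStop-Sun1/sfGFP reporter, given tamoxifen as young adults so that cells with an active Cre driver, and all their progeny, kept a fluorescent nuclear envelope. Left dentate gyri were dissected 1, 2, 4 or 8 weeks later (w1, w2, w4 and w8), those of 4 mice were pooled for each time, and labelled nuclei were sorted and sequenced, so each week is 1 library and no test between weeks was possible. The reporter marks cells in which the Cre was active and their descendants, so unlabelled granule cells of the same animals were not meant to be part of the data. All groups carry the same alleles and received the same drug. The authors' table placed 14367 nuclei (2867, 4243, 3831 and 3426 in w1 to w8) in 13 clusters, namely radial glia-like cells (RGL), neural progenitor cells (NPC), neuroblasts (NB1 and NB2), immature, young and mature granule cells (GCimm1, GCimm2, GCyoung, GCmat1 and GCmat2), astrocytes (Astro), oligodendrocyte precursor cells (OPC), oligodendrocytes (Oligo) and pericytes (Peri). GCmat1 held 17 nuclei of w1 and 9 of w2, although the paper describes new granule cells as mature only after more than 8 weeks. Where these nuclei came from was not tested. The w1 values of GCmat1 rest on those 17 nuclei, which also enter the main fit.

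The cluster names were checked against marker lists. Each list named for a cluster was highest in a cluster of that name, and the GCimm list was also high in NB2 (3268 UMIs per 1000000, or CPM, against 3768 in GCimm1 and 2736 in GCimm2). The 60 nuclei of Peri held 420 CPM of the pericyte markers (Pdgfrb, Rgs5, Abcc9 and Tbx18) and 5379.8 of the leptomeningeal ones (Slc6a13, Col1a2, Cped1 and Ranbp3l), so the data go against that label. The interneuron, endothelial, microglia and CA3 and mossy cell lists have no cluster. They reached at most 94.0 CPM (in GCimm1), 52.6 (in NPC), 53.7 (in Astro) and 784.9 (in NB2). The endothelial list was at 4.6 CPM in RGL. The libraries held 13227971 to 28595331 unique molecules (UMIs), and the median UMI number per nucleus lay between 4057.5 in NB1 and 8138 in GCmat1. Libraries shared 1 to 6 of the kept cell barcodes per pair, and these nuclei were kept.

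Levels are given as CPM, the UMIs of a gene for each 1000000 UMIs of the same nuclei, for each library with at least 10 nuclei in the cluster or for all libraries together. Changes between clusters are log2 fold changes with their standard errors (SE) from sums of counts per library and cluster, fitted with edgeR's quasi-likelihood test and with the library as a term, and a call needed a fold of 1.5 or more together with a p, adjusted over all genes tested after Benjamini and Hochberg, that did not exceed 0.05. The clusters were drawn by the authors from the expression of these same nuclei, so a change between clusters describes the stages and is not independent of how they were made. Fewer RNA molecules per nucleus and fewer nuclei with the RNA cannot be told apart in the summed counts.

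The 3 neighbouring steps at which the largest shares of all genes changed also held many changes of the receptors. From RGL to NPC 6 of the 10 changed, where 29.5% of all genes tested did so (13.7% higher and 15.9% lower), and only Nr2f1 rose. From NPC to NB1 8 of the 10 changed, against 29.3% of all genes, with Nr3c2, Thra, Thrb, Esrrg and Rarb higher (14.7% of all genes were) and Nr3c1, Rora and Nr2f2 lower (14.6%). From GCimm2 to GCyoung 8 of the 10 changed, against 18.9% of all genes (9.27% higher and 9.62% lower), and of these only Nr3c1 and Rora rose.

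Smaller shares of all genes changed at the steps between these, while the receptors called ranged from 1 to 6. NB1 to NB2 gave 2 of the 10 beside 2.94% of all genes (1.81% higher), both higher (Nr3c2 and Thrb), and 1 of the 10 without w1 or without w2. NB1 to GCimm1 gave 6 of the 10 beside 12.5% (7.76% higher and 4.75% lower), with Nr3c2 and Esrrg higher and Nr3c1, Rora, Nr2f1 and Nr2f2 lower. GCimm1 to GCimm2 gave 1 of the 10, Rarb, which fell, beside 9.43% (6.52% higher and 2.91% lower), a share close to that of all genes. GCyoung to GCmat1 gave 2 of the 10, Thrb and Esrrg, both higher, beside 3.85% (1.60% higher and 2.25% lower). Single libraries carried part of these counts: without w2 NB1 to GCimm1 gave 3, without w4 GCimm2 to GCyoung gave 4, and without w1 or w8 GCimm1 to GCimm2 gave 2. Between the ends of the trajectory, from RGL to GCmat1, 8 of the 10 had changed where 49.5% of all genes had (24.6% higher and 24.9% lower), with Nr3c2, Thra and Esrrg higher and Thrb, Rora, Rorb, Nr2f1 and Nr2f2 lower.

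**Figure D1:**
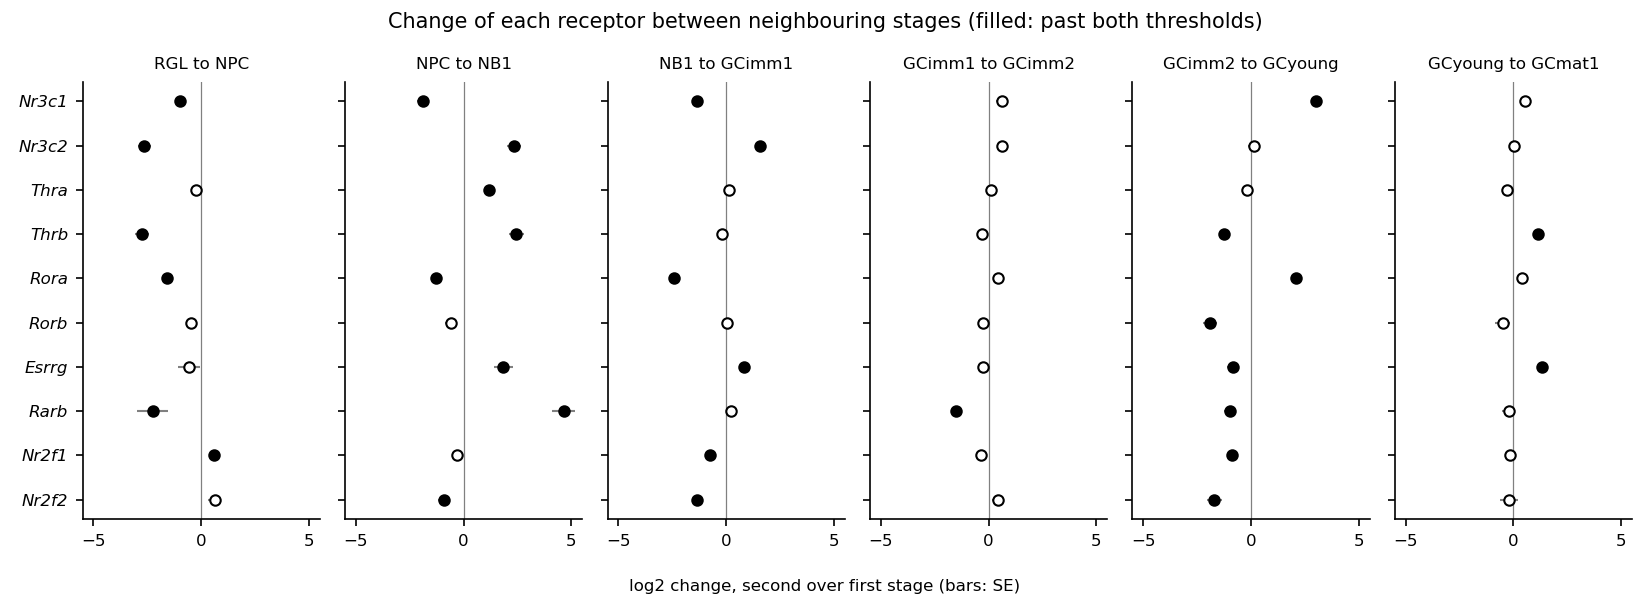
Log2 change (x axis) of each of the 10 receptors (rows) at 6 neighbouring steps of the granule cell lineage, with the SE as a bar. Filled circles passed both thresholds, and most of them lie in the panels for RGL to NPC, NPC to NB1 and GCimm2 to GCyoung.

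Nr3c1 encodes the glucocorticoid receptor and lies at chr18:39410545-39519421 on the minus strand of GRCm38, with introns making up 92.9% of its span. In RGL the w1 to w8 libraries held 133, 134, 158 and 95.6 CPM. NPC held 76.2, 89.3 and 91.8 CPM in w1, w2 and w4, and in NB1 the same libraries held 17.3, 17.9 and 29.1. The ranges of RGL, NPC and NB1 did not overlap, so the gene stepped down with each stage.

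Nr3c1 fell by 0.98 on the log2 scale (SE 0.21, edgeR adjusted p = 0.00016) from RGL to NPC, by 1.90 (SE 0.26, adjusted p = 2.1e-08) from NPC to NB1 and by 1.35 (SE 0.24, adjusted p = 2.4e-05) from NB1 to GCimm1. The last of these calls depended on the w2 library, without which the change was -1.27 with an adjusted p of 0.063. GCimm1 was the lowest cluster, with 10.7 CPM in w1, 6.30 in w2 and 6.77 in w4, and a UMI of the gene was found in 3.03% of its nuclei, beside 40.0% of RGL nuclei, with median depths of 5045.5 UMIs in GCimm1 and 4091 in RGL.

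The glucocorticoid receptor then came back. GCimm2 held 9.38 CPM in w2 and 10.4 in w4, and no UMI in the 28 nuclei of w8, while GCyoung held 70.4 CPM in w4 and 59.95 in w8. Both libraries that hold the 2 clusters therefore showed it, and the rise of 3.03 (SE 0.23, adjusted p = 4.6e-15) was called under every alternative tried, including without w4 or without w8. In GCmat1 the level was 57.6 CPM in the 17 nuclei of w1, 108 in w4 and 79.2 in w8. The change from GCyoung to GCmat1 of 0.53 (SE 0.16) missed the threshold with an adjusted p of 0.05002, and it passed when w1 was left out (0.61, adjusted p = 0.0084) or when sums needed at least 20 nuclei (0.61, adjusted p = 0.0050).

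Nr3c2 encodes the mineralocorticoid receptor, which binds corticosterone more tightly than the glucocorticoid receptor does. It lies at chr8:76899442-77245012 on the plus strand. RGL held 487, 377, 473 and 631 CPM in w1, w2, w4 and w8, and NPC 72.1, 129 and 52.4 in w1, w2 and w4. NB1 was back at 400, 385 and 408 CPM in the same libraries. By cluster, NPC thus stood apart as a gap between the stem cells and the neuroblasts. Along the deposited pseudo-time the low level reached into NB1, whose quartiles are 11.4 and 13.9. The pooled level was 137 CPM between 10 and 12 and 665 between 12 and 14.

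The gap was a fall of 2.63 on the log2 scale (SE 0.30, adjusted p = 3.5e-10) from RGL to NPC and a rise of 2.33 (SE 0.31, adjusted p = 1.2e-08) from NPC to NB1, and both held in every alternative. From NB1 the gene rose by 1.12 (SE 0.24, adjusted p = 0.0016) to NB2, where it was at 1008 CPM in w1, 702 in w2 and 897 in w4. It rose by 1.59 (SE 0.24, adjusted p = 4.9e-07) from NB1 to GCimm1, at 974, 1157 and 1181 CPM.

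Mineralocorticoid receptor RNA was already high in the stage before the glucocorticoid receptor reappeared. GCimm2 held 1529 CPM in w2, 1760 in w4 and 1685 in w8, and GCyoung 1597 in w4 and 1549 in w8. The step from GCimm1 to GCimm2 (0.64, SE 0.24) had an adjusted p of 0.079, and was called with RLE factors (0.71, adjusted p = 0.0081), with DESeq2 (0.71, adjusted p = 0.036) and without w1 (0.59, adjusted p = 0.046) or w8 (0.73, adjusted p = 0.044). In GCmat1 the libraries spread from 1095 CPM in w1 to 2115 in w4 and 1479 in w8, so the mature level could not be ordered against the 2 stages before it. The gene had a UMI in 83.5% of all nuclei and was not in the authors' log2 table, which left out features found in over 80% of nuclei.

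Set against each other, the 2 receptors diverged through the immature stages. Per kb of gene span, Nr3c1 and Nr3c2 were at 1.26 and 1.31 CPM in RGL, at 0.165 and 1.14 in NB1, at 0.0872 and 4.64 in GCimm2 and at 0.759 and 4.49 in GCmat1. The number of Nr3c2 UMIs for each Nr3c1 UMI, which is not corrected for length, was 3.31 in RGL (2.81 to 6.60 over the libraries), 1.12 in NPC (0.571 to 1.45), 21.9 in NB1 (14.0 to 23.2) and 175 in GCimm1 (91.1 to 184). It returned to 23.0 in GCyoung (22.7 to 25.8) and 18.8 in GCmat1 (18.7 to 19.6), and the lowest value, 0.710, was that of Oligo. The GCmat1 ratio varied less between libraries than the level of either gene did.

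**Figure D2:**
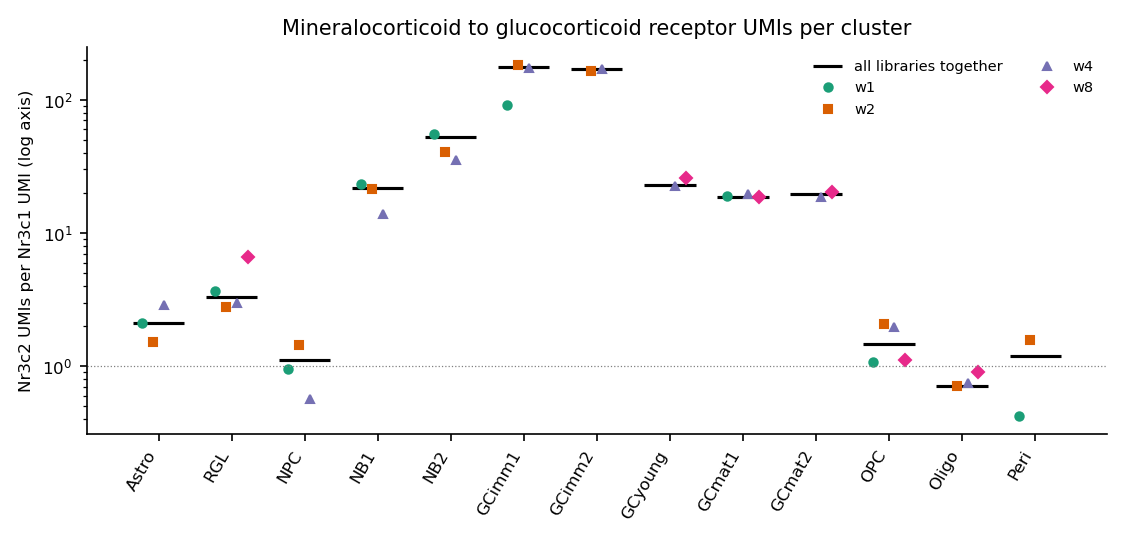
Nr3c2 UMIs per Nr3c1 UMI in each cluster (log axis), with 1 symbol per library and a bar for all libraries together; the w8 library of GCimm2 had no Nr3c1 UMI and has no symbol. The ratio lies near 1 in NPC, OPC, Oligo and Peri, is highest in GCimm1 and GCimm2, and falls back in GCyoung and the mature clusters.

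Nuclei with UMIs of both corticosteroid receptors were counted in RGL and GCmat1 and set beside the product of the 2 single shares. After each nucleus was thinned to 2000 UMIs, 152 of 1372 RGL nuclei (11.1%, exact 95% interval 9.47 to 12.9) held both, and the product of the shares was 11.4%. In GCmat1 440 of 3356 nuclei held both (13.1%, 11.99 to 14.3), beside a product of 12.96%. In both clusters the product lay inside the interval.

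Thra encodes the thyroid hormone receptor alpha, the more widely expressed of the 2 in brain, at chr11:98740638-98769006 on the plus strand. It was the steadiest of the receptors, and its pooled level stayed between 117 CPM in Peri and 341 in Oligo. RGL held 136, 148, 157 and 140 CPM in w1, w2, w4 and w8, and NPC 112, 185 and 197 in w1, w2 and w4. NB1 held 242, 304 and 336 CPM in the same libraries, and the gene was higher in NB1 than in NPC in each of the 3.

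The rise from NPC to NB1 was 1.17 (SE 0.19, adjusted p = 1.8e-06) and held in every alternative. Along the deposited pseudo-time, Thra was highest between 18 and 20, at 308 CPM, where immature granule cells lie, and was at 133 CPM in the last bin. From RGL to GCmat1 it was called higher (0.67, SE 0.16, adjusted p = 0.00031) although the pooled levels were 145 and 144 CPM, since the fit scales each sum by TMM factors. With RLE factors the change was 0.54, with DESeq2 0.52, with 20 nuclei per sum 0.57 and after thinning 0.56, all under the fold change threshold.

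Thrb encodes the thyroid hormone receptor beta, at chr14:17660261-18038090 on the plus strand. Astrocytes held 666 CPM in w1, 392 in w2 and 466 in w4, above RGL at 220, 167, 191.4 and 303 in w1, w2, w4 and w8. NPC held 48.1, 21.6 and 26.2 CPM in w1, w2 and w4, and NB1 179, 131 and 179. Like Nr3c2, the gene was thus low in the progenitors by cluster. In pseudo-time its pooled level was 86.3 CPM between 10 and 12 and 294 between 12 and 14.

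Thrb fell by 1.38 (SE 0.23, adjusted p = 1.3e-05) from Astro to RGL, where 3 of the 10 receptors were called beside 9.58% of all genes (4.77% higher and 4.82% lower), and all 3 (Thrb, Rorb and Rarb) were lower. It fell by 2.76 (SE 0.33, adjusted p = 9.4e-10) from RGL to NPC and rose by 2.44 (SE 0.34, adjusted p = 3.8e-08) from NPC to NB1. NB2 held 344, 236 and 154 CPM in w1, w2 and w4. Its difference from NB1 (0.79, SE 0.21, adjusted p = 0.016) was lost without w1 (0.66, adjusted p = 0.56), without w2 (0.69, adjusted p = 0.28), with DESeq2 and with no library term, and the 18 nuclei of w4 went the other way.

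In GCimm2 the libraries of Thrb lay far apart, at 47.9 CPM in w2, 122 in w4 and 253 in w8, while GCyoung held 39.9 in w4 and 43.2 in w8 and GCmat1 89.7, 100 and 87.4 in w1, w4 and w8. GCyoung was the low point, after a fall of 1.23 (SE 0.25, adjusted p = 0.00013) from GCimm2 and before a rise of 1.13 (SE 0.24, adjusted p = 0.0010) to GCmat1. Without a library term the adjusted p values of these 2 changes were 0.064 and 0.11. In w4 and in w8 alike the GCyoung level was below both neighbours. From RGL to GCmat1 Thrb was lower by 0.88 on the log2 scale (SE 0.21, adjusted p = 0.00025), a call lost with no library term (-0.70, adjusted p = 0.061).

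Rora encodes the retinoid-related orphan receptor alpha, which binds its DNA element as a monomer and is known for its role in Purkinje cells and as an activator of the clock gene Arntl. The gene spans chr9:68653786-69388246 on the plus strand, and 98.2% of the span is intronic. RGL held 3598, 3278, 2994 and 3414 CPM in w1, w2, w4 and w8. NPC held 1293, 1023 and 1717 in w1, w2 and w4, NB1 493, 374 and 482, and GCimm1 77.9, 74.4 and 77.6. Each stage lay below the whole range of the one before.

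The falls of Rora were 1.59 (SE 0.21, adjusted p = 9.4e-09) from RGL to NPC, 1.27 (SE 0.21, adjusted p = 3.2e-06) from NPC to NB1 and 2.41 (SE 0.23, adjusted p = 2.3e-12) from NB1 to GCimm1. The gene then turned at the same step as Nr3c1. GCimm2 held 92.4, 94.1 and 113 CPM in w2, w4 and w8 and GCyoung 364 in w4 and 418 in w8, a rise of 2.10 (SE 0.25, adjusted p = 2.3e-09). All 4 of these calls held in every alternative.

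In GCmat1 Rora was at 371 CPM in w1, 451 in w4 and 655 in w8, and the change from GCyoung (0.38, SE 0.23, adjusted p = 0.65) did not pass the test. Along pseudo-time its pooled level went from 3400 CPM in the first bin to 74.6 between 16 and 18 and to 665 in the last bin. Nr3c1 had its lowest bin in the same place, at 5.24 CPM, from 152 CPM between 2 and 4, and was at 90.1 CPM between 28 and 30. From RGL to GCmat1 Rora was lower by 2.36 on the log2 scale (SE 0.21, adjusted p = 2.6e-14). Nr3c1 was not called between these ends (-0.039, SE 0.16, adjusted p = 0.86), at pooled levels of 137 and 82.7 CPM. The fit scales each sum by TMM factors, which in w8 were 1.005 for RGL and 0.707 for GCmat1. The small fitted change therefore does not show a return to the CPM level of RGL.

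Rorb encodes the beta member of the same family, at chr19:18930605-19111196 on the minus strand. Astrocytes held 1808, 2118 and 1951 CPM in w1, w2 and w4, and RGL 227, 199, 173 and 277 in w1, w2, w4 and w8. This was the largest difference between astrocytes and RGL among the 10, a fall of 3.15 (SE 0.23, adjusted p = 7.7e-16) that held in every alternative. Rora, the relative, was at 5072, 4404 and 4227 CPM in astrocytes and was not called there.

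Rorb stayed near its RGL level in NPC (202, 216 and 131 CPM in w1, w2 and w4) and near 100 CPM in NB1 and GCimm1. It fell by 1.91 (SE 0.33, adjusted p = 9.4e-06) from GCimm2, at 60.3, 88.5 and 113 CPM in w2, w4 and w8, to GCyoung, at 17.3 in w4 and 15.3 in w8. Rora and Rorb thus moved in opposite directions at this step, and Rora UMIs per Rorb UMI went from 1.33 in GCimm2 (1.00 to 1.53) to 21.5 in GCyoung (21.0 to 27.3). In GCmat1 the Rorb level was 51.2 CPM in the 17 nuclei of w1, 16.6 in w4 and 7.19 in w8.

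Esrrg encodes the estrogen-related receptor gamma, an orphan receptor that works with the coactivators Ppargc1a and Ppargc1b on genes of mitochondrial metabolism. It lies at chr1:187608791-188214885 on the plus strand. NB1 held 64.0, 66.3 and 49.3 CPM in w1, w2 and w4, and GCimm1 74.8, 107 and 118. GCyoung held 39.1 in w4 and 24.4 in w8, and GCmat1 102, 80.1 and 82.4 in w1, w4 and w8. The gene was thus present from the neuroblasts on, with a dip in GCyoung. Its rise from NB1 to GCimm1 (0.82, SE 0.21, adjusted p = 0.0039) was lost with DESeq2 (0.95, adjusted p = 0.21) and with all 13 clusters in 1 fit (0.87, adjusted p = 0.067).

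The dip was a fall of 0.84 (SE 0.26, adjusted p = 0.014) from GCimm2 and a rise of 1.33 (SE 0.24, adjusted p = 0.00012) to GCmat1. The fall was lost without w4 (-1.29, adjusted p = 0.14) or w8 (-0.64, adjusted p = 0.099), and DESeq2 called neither (adjusted p = 0.12 and 0.27). From GCmat1 to GCmat2, where 4 of the 10 receptors were called beside 7.30% of all genes (3.01% higher and 4.28% lower), Esrrg fell by 1.88 (SE 0.36, adjusted p = 0.00012), to 33.2 CPM in w4 and 19.0 in w8. Without w8 that change was -1.39 with an adjusted p of 0.18, with DESeq2 it was -1.61 with an adjusted p of 0.076, and without w4 or without w8 only 1 of the 10 was called at this step.

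In the stem cells Esrrg came from a handful of nuclei. Of 158 UMIs in RGL, 93.7% were in 5 nuclei with at least 10 UMIs each, and without them the level fell from 25.9 to 1.65 CPM. Those 5 nuclei held 267 CPM of the RGL markers, against 5943 in the other 1382. Their endothelial markers were at 178 CPM against 3.30, microglia markers at 133.5 against 52.7 and GCimm markers at 200 against 71.7. In NPC 2 nuclei held 82.9% of the 35 UMIs, and in Peri 1 nucleus held 83 of 90, so the value of 284 CPM in that cluster was 22.9 without it, and the leptomeningeal markers were at 0 in that nucleus and at 5561 CPM in the others. In these nuclei of NPC and Peri the endothelial list was at 0. The microglia list was at 378 and 290 CPM there, against 23.3 and 6.53 in the other nuclei of NPC and Peri. What the nuclei rich in Esrrg are was not tested, and the levels of Esrrg in RGL, NPC and Peri and its change from RGL to Peri rest on them. They also raise the starting level of the Esrrg changes called from NPC to NB1 (1.84), RGL to GCmat1 (2.35) and RGL to OPC (2.28), whose sizes therefore depend on them.

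**Figure D3:**
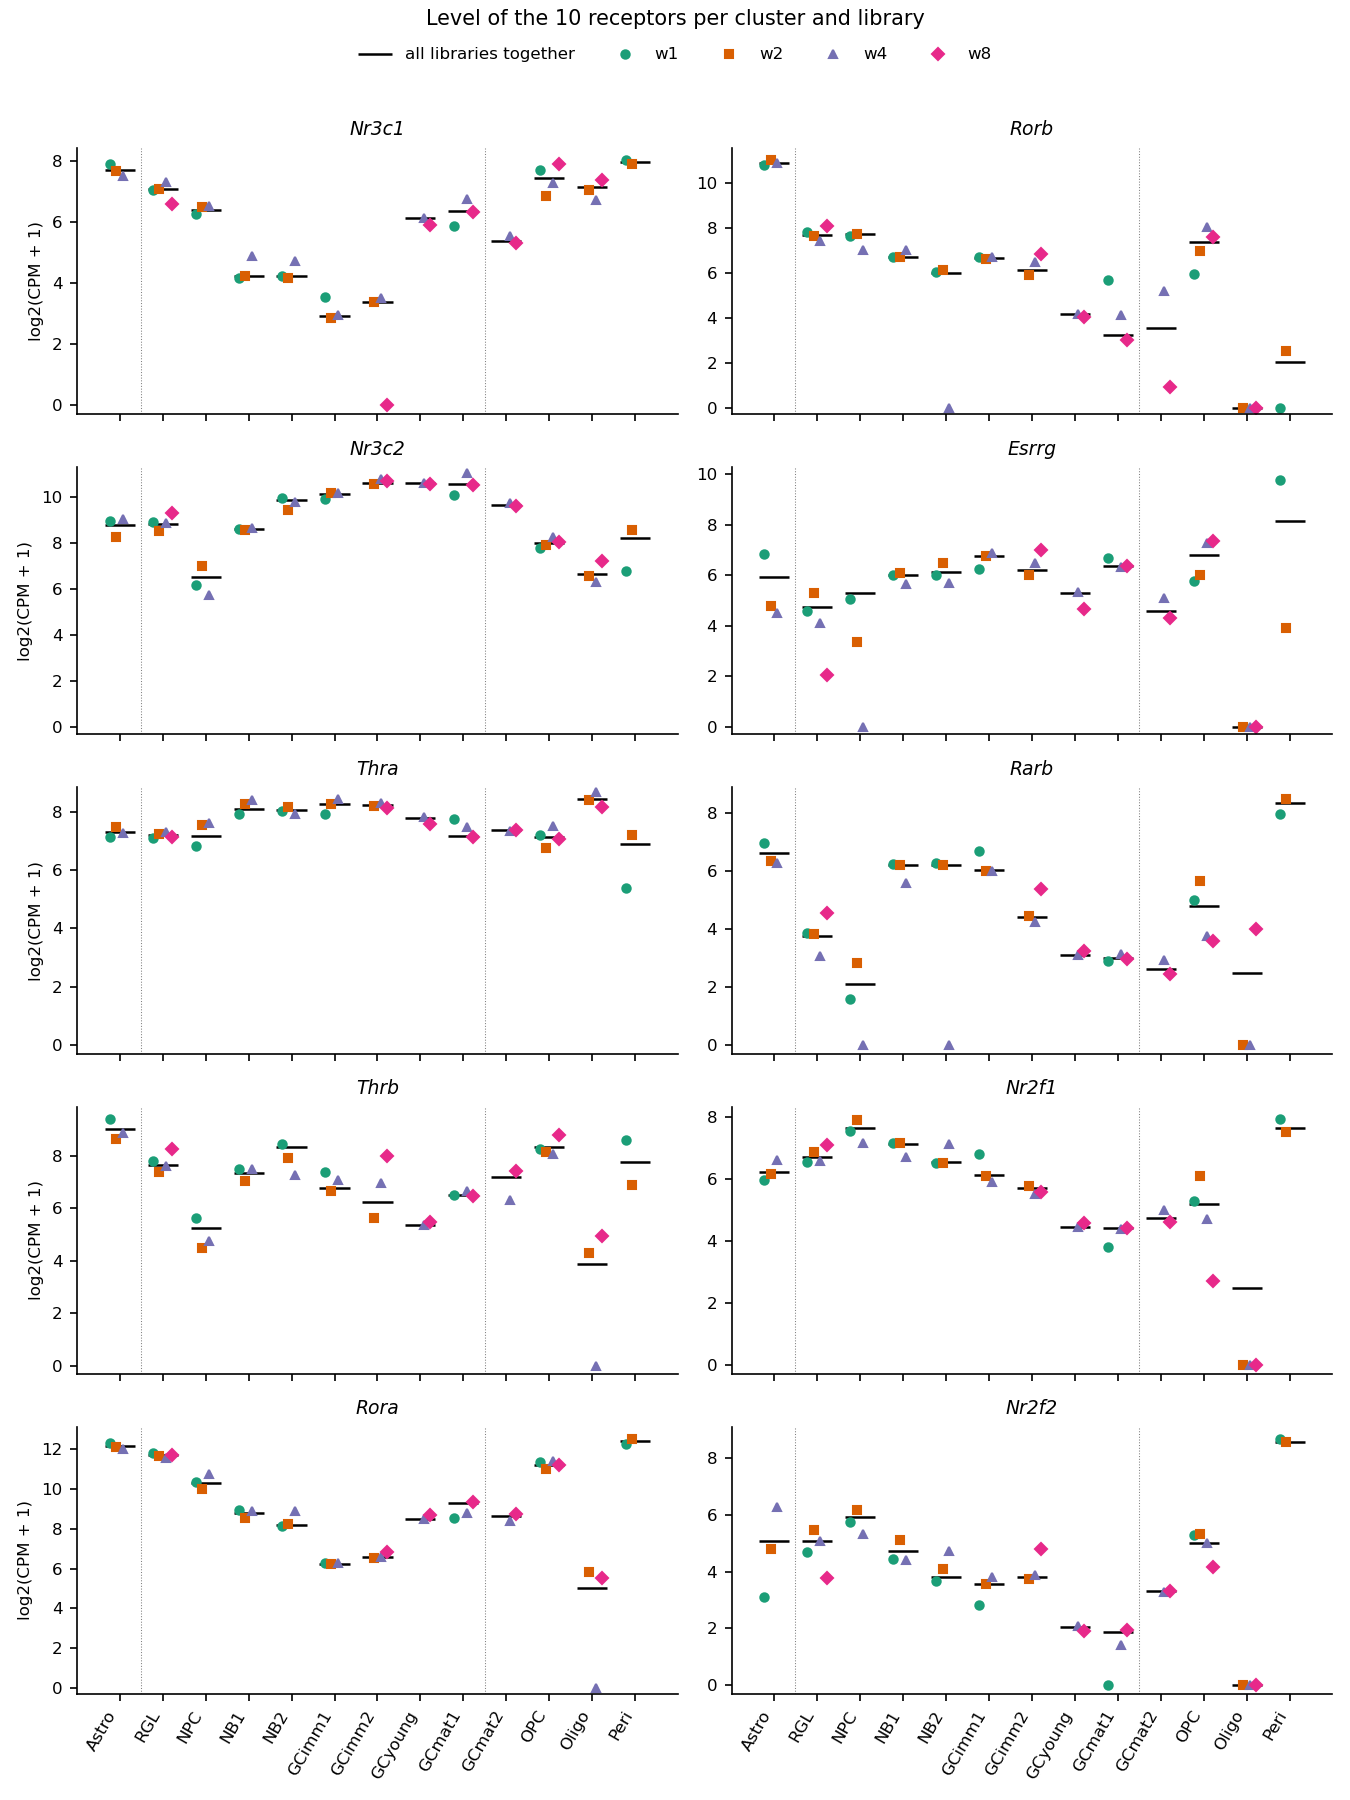
Level of each receptor as log2(CPM + 1) in the 13 clusters, with 1 symbol per library of at least 10 nuclei and a bar for all libraries together; dotted lines enclose the clusters with a pseudo-time. Nr3c1 forms a trough over NB1 to GCimm2 and Rora over GCimm1 and GCimm2, Nr3c2, Thrb and Rarb dip in NPC, and Nr2f1 and Nr2f2 decline from NPC to GCmat1.

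Rarb encodes the retinoic acid receptor beta, at chr14:16430839-16819156 on the minus strand, and is known as a gene that retinoic acid itself induces through an element close to one of its starts. That element, a direct repeat spaced by 5 bases, was looked for as GGTTCA, then 5 bases of any kind, then AGTTCA, on both strands in RefSeq windows from 250 bases before to 50 after each annotated start, of which 14 belong to 8 of the 10 receptors. It was found in 2 of 32851 windows (0.00609%), and 1 of the 2 is a Rarb window. The letters searched for are those of the known Rarb element, so a match there was set in advance. The low share of windows therefore says nothing about Rarb. The Rarb match is shown here with the repeat in capitals, since Rarb was the receptor that rose most at a single step. It lies at chr14:16575506-16575535 on the minus strand of GRCm38.p6, in a part annotated as an exon of Rarb and 59 to 30 bases before the start at which the window was centred. A match is a description of the letters and says nothing about binding in these nuclei.
Rarb element: gggaagGGTTCACCGAAAGTTCActcgcat

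Within the granule cell lineage, RNA of Rarb was highest from NB1 to GCimm1, while the pooled levels of Astro (95.5 CPM, 75.9 to 123 over the libraries) and Peri (319) were above those of these stages. RGL held 13.5, 13.2, 7.36 and 22.3 CPM in w1, w2, w4 and w8, and NPC only 3 UMIs in all, or 3.28 CPM. NB1 held 73.5, 72.4 and 47.0 CPM in w1, w2 and w4, which is 21.9 times the NPC level with a counting interval from 7.48 to 107. The test gave a rise of 4.65 (SE 0.53, adjusted p = 2.4e-10) that held in every alternative. The fall before it, from RGL to NPC (2.26 on the log2 scale, SE 0.74, adjusted p = 0.015), was lost without w1 (-1.63, adjusted p = 0.28) and after thinning (adjusted p = 0.073).

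GCimm1 held 101, 62.2 and 62.2 CPM in w1, w2 and w4, and GCimm2 20.8, 17.7 and 40.0 in w2, w4 and w8. Rarb was the only receptor called between these 2 stages, with a fall of 1.51 (SE 0.21, adjusted p = 2.2e-07). It fell again by 0.99 (SE 0.28, adjusted p = 0.0080) to GCyoung, at 7.54 CPM in w4 and 8.37 in w8, a call that was lost without w4 (-1.93, adjusted p = 0.078). In pseudo-time its pooled level rose from 1.00 CPM between 8 and 10 to 104 between 14 and 16, and was at 6.57 in the last bin.

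Genes that handle retinoids were highest in different clusters, some of them in Peri and others in granule cells. Of 16 genes that handle retinoids, 6 could be tested on the trajectory, and Aldh1a2, which makes retinoic acid, was at 445 CPM in Peri and below 1 CPM in every other cluster. Aldh1a1, another enzyme of the same kind, was also highest in Peri, at 117 CPM. Stra6, a retinol uptake receptor, rose by 2.46 (SE 0.77, adjusted p = 0.016) from GCimm2 to GCyoung, between low levels of 0.669 and 3.12 CPM. It was at 25.6 CPM in GCmat1. Dhrs3, which turns retinal back to retinol, fell by 1.62 (SE 0.49, adjusted p = 0.012) from GCimm2 to GCyoung. Rdh10, which oxidises retinol, rose by 1.51 (SE 0.51, adjusted p = 0.019) from NPC to NB1. Dhrs3 and Rdh10 were themselves highest in Peri, at 34.8 and 69.5 CPM.

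Nr2f1 and Nr2f2 encode COUP-TFI and COUP-TFII, orphan receptors known for patterning cortex and hippocampus along their axes. They lie at chr13:78188973-78199757 and chr7:70351944-70366735, both on the minus strand, and are short, so little more than 40 to 50% of their spans is intronic (52.8 and 41.7%). RGL held 93.5, 116, 95.7 and 137 CPM of Nr2f1 in w1, w2, w4 and w8, and NPC 186, 240 and 144 in w1, w2 and w4. Nr2f2 was at 24.8, 43.2, 33.1 and 12.7 CPM in RGL and at 52.1, 70.9 and 39.3 in NPC. Both had their highest pseudo-time bin between 8 and 10, at 246 and 68.3 CPM.

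The rise of Nr2f1 from RGL to NPC (0.59, SE 0.19, adjusted p = 0.012) was close to the fold change threshold and was lost without w1 (0.56, adjusted p = 0.071) or w2 (0.46, adjusted p = 0.22), after thinning and under 3 other alternatives. A decline followed. From NPC to NB1 Nr2f2 fell by 0.91 (SE 0.29, adjusted p = 0.013), though not without w1 (-0.74, adjusted p = 0.24), without w2 (-1.04, adjusted p = 0.079) or after thinning (-0.44, adjusted p = 0.52). From NB1 to GCimm1 Nr2f1 fell by 0.74 (SE 0.16, adjusted p = 0.00046) and Nr2f2 by 1.33 (SE 0.25, adjusted p = 5.7e-05), and without w2 these were -0.56 and -0.9985 with adjusted p values of 0.18 and 0.24. From GCimm2 to GCyoung they fell by 0.87 (SE 0.22, adjusted p = 0.0020) and 1.71 (SE 0.35, adjusted p = 0.00016), to 20.9 and 3.23 CPM in w4 and 23.0 and 2.79 in w8, and without w4 the adjusted p values were 0.088 and 0.62. Over the whole trajectory, from RGL to GCmat1, Nr2f1 fell by 1.82 (SE 0.20, adjusted p = 2.3e-11) and Nr2f2 fell by 3.09 (SE 0.36, adjusted p = 1.7e-10), and both calls held in every alternative.

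The authors left some GCmat1 nuclei without a pseudo-time, and in w8 there were 216 of them beside 2711 with one. By the methods of the study, mature nuclei strong in ventral genes were kept out of the pseudo-time, so the split was itself made on expression and the values of the 2 parts are a description. Of 3356 GCmat1 nuclei, 3136 had a pseudo-time, and the study states a larger number of left-out nuclei than this leaves. The part with a pseudo-time may therefore still hold ventral nuclei. Nr2f2 was at 1.44 CPM (95% Poisson interval 0.991 to 2.02) in the nuclei with a pseudo-time and at 15.8 (11.2 to 21.8) in those without, and 13.4% of the latter had a UMI of it. Thrb was at 83.7 and 123 CPM, Nr2f1 at 19.6 and 26.7, Nr3c1 at 81.7 and 55.5, Nr3c2 at 1503 and 1252, and Rora at 653 and 668. The other libraries held too few such nuclei to form a sum, so this is a comparison within 1 library with no replicate and no test, and the intervals cover counting error only.

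**Figure D4:**
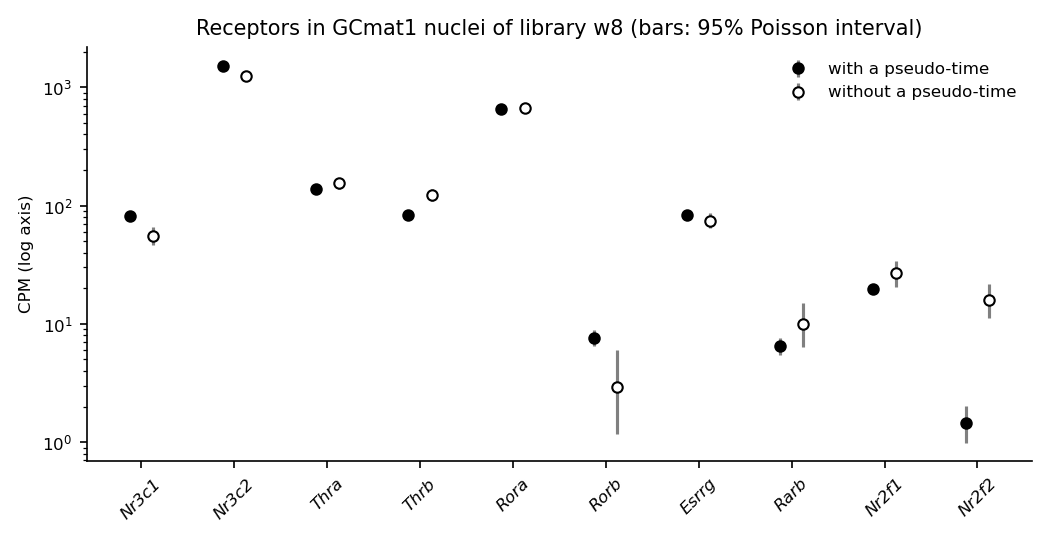
CPM (log axis) of the 10 receptors in GCmat1 nuclei of the w8 library with and without a deposited pseudo-time, with 95% Poisson intervals as bars where they are wider than the symbol. Nr2f2 shows the widest gap, at 1.44 against 15.8 CPM.

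GCmat2, the second cluster of mature granule cells, had 60 nuclei in w4 and 149 in w8. Nr3c1 was at 46.4 and 38.8 CPM there and Nr3c2 at 864 and 788, below GCmat1 in both libraries, with changes of -1.16 (SE 0.23, adjusted p = 0.00017) and -1.01 (SE 0.27, adjusted p = 0.0087). Both calls were lost without w4 (-1.02, adjusted p = 0.051, and -0.81, adjusted p = 0.34), and that of Nr3c2 also without w8 (-0.98, adjusted p = 0.16). Nr2f2 was higher by 1.67 (SE 0.54, adjusted p = 0.045) on 14 UMIs, and that call was lost when any of the 4 libraries was left out (1.59 to 2.32). The Nr3c2 to Nr3c1 ratio of 19.8 was close to the 18.8 of GCmat1.

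**Figure D5:**
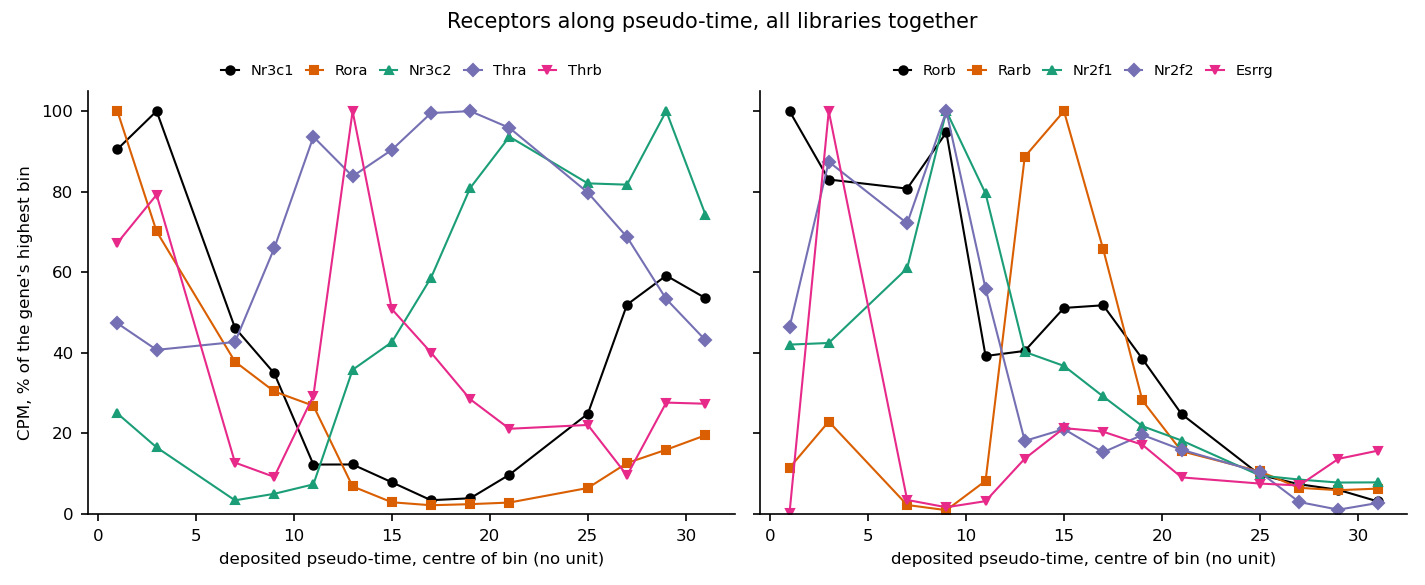
Pooled level of each receptor along the deposited pseudo-time in bins of width 2, as a percentage of the highest bin of that gene; bins without nuclei are skipped. Nr3c1 and Rora are lowest between 16 and 18, Rarb has its peak between 14 and 16, and the Esrrg value between 2 and 4 rests on 179 UMIs that, in bins of width 1, all lie between 3 and 4 (2234 CPM, against 0 between 2 and 3).

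Oligodendrocyte precursors, the dividing cells that give rise to oligodendrocytes, differed from RGL in 5 of the 10 receptors, beside 29.7% of all genes (14.5% higher and 15.2% lower). Thrb was at 307, 277, 263 and 434 CPM in w1, w2, w4 and w8, above RGL in each of the 4 libraries (0.70, SE 0.21, adjusted p = 0.0072), though with no library term the adjusted p was 0.086. Nr3c2 was at 222, 243, 307 and 267 CPM and lower than in RGL (-0.78, SE 0.24, adjusted p = 0.0096), though not without w8 (-0.69, adjusted p = 0.071). Rora, at 2630, 2058, 2699 and 2417 CPM, was not called. Nr2f1 was lower (-1.44, SE 0.32, adjusted p = 0.00022), at 38.3, 68.1, 25.0 and 5.57 CPM, and this call was lost after thinning (-0.91, adjusted p = 0.078). Esrrg and Rarb were called higher than in RGL, on 74 and 18 UMIs. The call of Rarb (1.29, SE 0.49, adjusted p = 0.036) was lost without w1 (1.27, adjusted p = 0.099), w2 (0.72, adjusted p = 0.51) or w4 (1.24, adjusted p = 0.070), and after thinning its direction turned (-0.054, adjusted p = 0.98).

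Oligodendrocytes, which make myelin and follow the precursors, numbered 45, and 3 libraries held at least 10 of them. From OPC to Oligo 8 of the 10 were called, where 20.0% of all genes were (6.70% higher and 13.2% lower), and 7 of the 8 were lower. Without w2 or without w4 the count was 5. Rora showed it most clearly, with 1631 UMIs in OPC and 7 in Oligo, a level 75.8 times higher in OPC (36.7 to 189), and Thrb with 217 and 3 UMIs was 23.5 times higher (7.95 to 115). Rorb, Esrrg and Nr2f2 had no UMI in Oligo. Their OPC levels were 12.04, 8.02 and 2.28 times a floor of 3 counts over the Oligo cluster, which leaves out the counting error in OPC. The Esrrg call was lost without w4 or w8, and the Nr2f2 call without w2, without w4 and after thinning.

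Thra alone rose, by 1.02 (SE 0.27, adjusted p = 0.0031), from 107, 182 and 134 CPM in OPC of w2, w4 and w8 to 338, 408 and 285 in Oligo. The level in Oligo was above that in OPC in each of the 3 libraries, but the call was lost without w2 (0.87, adjusted p = 0.056), without w4 (0.87, adjusted p = 0.11) and after thinning (0.49, adjusted p = 0.49). Nr3c1 was at 131, 105.1 and 165 CPM in Oligo and was not called, and Nr3c2 fell by 1.57 (SE 0.44, adjusted p = 0.0057), to 93.8, 78.9 and 150 CPM. Thyroid hormone is known to drive the maturation of oligodendrocytes, and Mbp, a myelin gene on the list of thyroid hormone-responsive genes, was at 6296 CPM in Oligo. Of the 10 genes of that list tested from OPC to Oligo, 2 rose and 1 fell, where 6.70% of all genes rose and 13.2% fell. The median was -0.50 beside -0.43 over all genes.

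The nuclei of Peri, whose leading markers were leptomeningeal, differed from RGL in 7 of the 10, beside 23.3% of all genes (10.9% higher and 12.5% lower). Nr2f2, known from veins and mesenchyme, was at 407 CPM in w1 and 382 in w2 (3.50 higher than RGL, SE 0.26, adjusted p = 1.8e-16), and Rarb at 244 and 349 (4.42 higher, SE 0.31, adjusted p = 7.7e-18). Both were at their highest of all clusters there and both calls held in every alternative. Rora was at 5026 and 5888 CPM and was higher by 0.70 (SE 0.22, adjusted p = 0.013), a call that was lost without w2 (0.42, adjusted p = 0.48), w4 (0.68, adjusted p = 0.055) or w8 (0.60, adjusted p = 0.066). Nr3c1, at 264 and 240 CPM, and Nr2f1, at 244 and 184, were also called higher (0.85 and 0.75, adjusted p = 0.0066 and 0.037), and neither call held without w2 (0.77 and 0.88, adjusted p = 0.25 and 0.19). Rorb had 1 UMI in this cluster, and RGL was 65.8 times higher with an interval from 11.8 to 2601.

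Across the 13 clusters, the pooled order of Rora ran from Peri (5582 CPM) through Astro, RGL and OPC to GCimm1 (74.9) and Oligo (31.9), and 7 of the 12 neighbours in that order had library ranges that did not overlap. For Nr3c1 (249 CPM in Peri to 6.58 in GCimm1) 5 of 12 were apart, for Nr3c2 (1604 in GCimm2 to 93.1 in NPC) 3, for Thra 2, and for Thrb (519 in Astro to 13.7 in Oligo) 1. Rorb had 2 of 12 apart, Esrrg 1, Rarb 3, Nr2f1 5 and Nr2f2 2. The order within a group of neighbours that overlap is therefore not settled by these libraries.

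The genes whose levels followed each receptor most closely over the 38 sums of library and cluster were taken from 11193 genes by Pearson's r of log2(CPM + 1), and the sums share libraries and depth, so the values are descriptions. Nr3c1 was most like Ptbp3 (r = 0.85) and Wdsub1 (0.85), and Nr3c2 most like Camkv (0.88). Thra was most like Apba1 (0.83) and Elavl3 (0.81), Thrb most like Arhgap26 (0.87) and Klhl5 (0.84), and Rora most like Eya1 (0.92) and Pcgf5 (0.88). For Rorb they were Creg1 (0.85) and Rpl36a (0.85), for Esrrg Pdha1 (0.83) and Lrrc16a (0.82), and for Rarb Glipr2 (0.81) and Myo1c (0.79). Nr2f1 was most like Arhgap12 (0.94) and Igdcc4 (0.92), and Nr2f2 most like Ptpn21 (0.87) and Rbms3 (0.86). Among the receptors themselves the highest r was that of Nr2f1 with Nr2f2 (0.79) and the lowest that of Rora with Thra (-0.76).

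The genes that supply thyroid hormone changed early in the lineage. Slco1c1, which carries thyroxine into cells, was at 597 CPM in Astro, 187 in RGL, 58.0 in NPC and 2.29 in NB1, a fall of 4.43 (SE 0.39, adjusted p = 7.6e-14) from NPC to NB1. Dio2, which converts thyroxine to the active hormone, fell by 3.36 (SE 0.61, adjusted p = 1.2e-05) from RGL to NPC, and was at 98.5 CPM in Astro and 38.5 in RGL. Of 12 tested genes on this list of 16, which also holds enzymes of corticosteroids, 5 changed from RGL to NPC (2 higher) and 4 from NPC to NB1 (1 higher), beside 29.5 and 29.3% of all genes, with medians of -0.012 and 0.22 beside -0.054 and 0.064 over all genes.

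Among the 16 genes known to respond to glucocorticoids, 14 were tested. From RGL to NPC 8 fell and 1 rose, with a median of -1.22, where 15.9% of all genes fell and 13.7% rose. From GCimm2 to GCyoung, the step at which Nr3c1 returned, 4 rose and none fell at a median of 0.15 beside 0.027 over all genes, of which 9.27% rose and 9.62% fell. From GCimm1 to GCimm2, where Nr3c1 was not called, 3 of the list were higher and none lower (median 0.13), beside 6.52% of all genes higher. From NB1 to GCimm1, where Nr3c1 was called lower, 2 of the list were higher and none lower (median 0.42), beside 7.76% of all genes higher. Zbtb16 rose by 1.73 (SE 0.30, adjusted p = 1e-05) from GCimm2 to GCyoung and was at 292 CPM in GCmat1, and Fkbp5, a chaperone that limits receptor activity, rose by 0.91 (SE 0.23, adjusted p = 0.0022). Fkbp5 went against the receptor from RGL to NPC, with a rise of 1.81 (SE 0.25, adjusted p = 5.7e-08), and fell with it by 1.97 (SE 0.25, adjusted p = 7.4e-09) from NPC to NB1. Mt2, Arrdc2 and Pdk4 fell by 2.82 (SE 0.54, adjusted p = 2.8e-05) and 3.48 (SE 1.08, adjusted p = 0.0096) from RGL to NPC and by 5.07 (SE 1.14, adjusted p = 0.00041) from NPC to NB1, in that order, while Errfi1 was highest in Peri at 420 CPM and Tsc22d3 in Oligo at 328.

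Klf9, a target of both corticosteroid and thyroid hormone receptors that was chosen after its values were seen, was at 117 CPM in RGL, 27.4 in NPC, 15.2 in NB1, 19.7 in GCimm1, 53.0 in GCimm2 and 82.5 in GCyoung. It fell by 2.31 (SE 0.33, adjusted p = 1.4e-07) from RGL to NPC, and rose by 1.51 (SE 0.23, adjusted p = 1.2e-06) from GCimm1 to GCimm2 and by 0.72 (SE 0.23, adjusted p = 0.017) to GCyoung. By cluster, its rise was therefore called 1 stage before that of Nr3c1. In pseudo-time the pooled level of Nr3c1 was 5.98 CPM between 18 and 20 and 14.9 between 20 and 22. GCimm2 has its quartiles at 19.4 and 20.6, so the order of the 2 genes within that stage is not settled. Of the 11 tested thyroid hormone-responsive genes, 4 rose and 1 fell from GCimm2 to GCyoung, where 9.27% of all genes rose and 9.62% fell, and Camk4, a calcium-dependent kinase, rose by 4.03 (SE 0.60, adjusted p = 2.7e-07) from NPC to NB1. Itga7 rose by 4.04 (SE 0.84, adjusted p = 0.00021) from GCimm2 to GCyoung, from 0.267 to 3.81 CPM, Reln fell by 3.57 (SE 0.87, adjusted p = 0.0080) from NB1 to NB2, and Thrsp was highest in RGL at 506 CPM.

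Of the 39 other nuclear receptors 22 passed the filter. From RGL to NPC 8 fell and 2 rose, where 15.9% of all genes fell and 13.7% rose, and from RGL to GCmat1 9 fell and 5 rose, where 24.9% fell and 24.6% rose, with a median of -0.38 beside 0.003 over all genes. Esr1, the estrogen receptor alpha, was at 2.29 CPM in NB1, 49.4 in NB2 and 37.3 in GCimm1, a rise of 4.49 (SE 0.39, adjusted p = 1.7e-12) from NB1 to NB2. Rarg, the gamma form of the retinoic acid receptor, fell by 4.09 (SE 0.76, adjusted p = 2.1e-05) from RGL to NPC, from 33.1 to 3.28 CPM. Nr6a1, Nr2c2 and Nr1d2 had the highest levels of the list, at 396 CPM in GCimm1, 309 in NPC and 202 in Peri, and Nr4a3 had 5.47 CPM in NPC and 8.72 CPM in NB1.

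The coregulators that receptors recruit were all tested, 25 of 25. From RGL to NPC 8 of them changed (3 higher), where 29.5% of all genes did, and from RGL to GCmat1 12 changed (8 higher), where 49.5% did, with a median of 0.28, so both counts were near those of all genes. Ppargc1a, the partner of Esrrg and of the other estrogen-related receptors, was at 295 CPM in Astro and 51.6 in RGL, and fell by 3.81 (SE 0.48, adjusted p = 3.6e-09) to NPC. It was at 28.2 CPM in GCyoung and 44.2 in GCmat1, while its relative Ppargc1b went from 1.09 CPM in NPC and 6.88 in NB1 to 57.7 in GCyoung. Bcl11b, a partner of the COUP-TF proteins, rose by 2.55 (SE 0.39, adjusted p = 4.9e-07) from NPC to NB1 and reached 328 CPM in GCyoung. Zfpm2, Ncoa1 and Ncor1 were the most abundant of the list, at 2759 CPM in NB1, 1227 in NPC and 553 in NPC.

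All 11 chaperones of steroid receptors were tested, and 4 of them changed from RGL to NPC (3 higher), 3 from NPC to NB1 (all lower) and 1 from GCimm2 to GCyoung (higher), beside 29.5, 29.3 and 18.9% of all genes. Stub1, a ubiquitin ligase that acts with the chaperones, fell by 0.89 (SE 0.21, adjusted p = 0.00068) from NPC to NB1, Ppid fell by 0.99 (SE 0.29, adjusted p = 0.0069) from RGL to NPC, and Hsp90ab1 was highest in Oligo at 232 CPM. Of the 16 tested genes linked to the ROR and estrogen-related receptors, 5 rose and none fell from NB1 to GCimm1, with a median of 0.25, where 7.76% of all genes rose and 4.75% fell. At that step Rora fell, Rorb was not called, and the rise of Esrrg was lost in some alternatives. From RGL to NPC 1 of the list rose and 4 fell, and from NPC to NB1 4 rose and 2 fell, beside 29.5 and 29.3% of all genes changed. Itpr1, an intracellular calcium channel, and the clock gene Npas2 were among the most abundant of that list, at 771 CPM in Peri and 278 in Astro. Slc1a6, a glutamate transporter of Purkinje cells, did not exceed 17.8 CPM in any cluster.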

How the data were processed

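Nuclei sorted from dentate gyri were sequenced by the authors in 4 libraries (10x Chromium 3′ chemistry). The deposited matrices hold raw UMI counts per feature, made by the authors with STARsolo 2.7.4a on mm10 (GRCm38) over exons and introns, with multi-mapped reads left out. The study states default settings for UMI counting, which in STARsolo take the forward strand alone; genes on the opposite strand overlap 8 of the 10 receptors, among them Top2b (Rarb) and A830082K12Rik (Nr2f1), and how reads there were assigned was not tested. A deposited table gives log2 expression that the authors made from scran size factors with 1 added, with library, cluster and pseudo-time per nucleus. Doublets, low-quality nuclei and a set of w4 nuclei taken for a possible outlier had been removed by the authors, and the 14367 nuclei of that table were used.

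Counts were summed per library and cluster with at least 10 nuclei and fitted with edgeR 4.0.16 in R 4.3.3 (filterByExpr, TMM, glmQLFit, glmQLFTest; terms cluster and library): 29 sums and 13513 genes for the trajectory with Astro, 38 sums and 11548 genes for comparisons with OPC, Oligo or Peri. CPM has an exact 95% Poisson interval and shares a Clopper-Pearson one, which cover counting error only. The scripts were tested on simulated counts with known changes. For NB1 to GCimm1 the fit recovered 75 of 100 log2 changes of 1 and 100 of 100 log2 changes of 2. For OPC to Oligo it recovered 6 of 100 and 36 of 100. A receptor not called in that comparison may therefore still differ. Every library pools 4 mice, so the spread between sums is not that between animals.

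Alternatives were DESeq2 1.42.0, a fit without the library term, RLE scaling, all genes unfiltered, at least 20 nuclei, thinning to 2000 UMIs per nucleus (141 shallower nuclei left out), all clusters in 1 fit, and each library left out. The 10 receptors, the 8 lists and the named genes (the 3 most abundant and 3 most changed of each list, the 2 most alike of each receptor) were chosen with earlier results of these data known. A planned comparison of protein sequences was not run. Some genes that these rules name, and the driver of the Cre, are not reported here.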

Additional observations from a re-analysis of the deposited data

How the results depend on the processing

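Of 68 calls of the 10 receptors over 13 comparisons, 34 were lost in no alternative, 24 were lost in at least 1 alternative that kept all libraries and 25 when some library was left out. With no library term the count called fell from 2 to 1 for NB1 to NB2 and for GCyoung to GCmat1 and from 5 to 3 for RGL to OPC. DESeq2 gave 5 in place of 3 for Astro to RGL, 1 for NB1 to NB2, 2 for GCimm1 to GCimm2 and 1 for GCyoung to GCmat1. RLE factors gave 5 for Astro to RGL and 2 for GCimm1 to GCimm2, and all 13 clusters in 1 fit gave 5 for Astro to RGL. No filter, 20 nuclei per sum and thinning each gave 2 for GCimm1 to GCimm2, and thinning gave 2 in place of 4 for GCmat1 to GCmat2, 3 for RGL to OPC and 5 in place of 8 for OPC to Oligo. With a library left out the counts lay between 1 and 3 for NB1 to NB2, 3 and 6 for NB1 to GCimm1, 1 and 2 for GCimm1 to GCimm2, 4 and 8 for GCimm2 to GCyoung, 1 and 4 for GCmat1 to GCmat2 and 5 and 8 for OPC to Oligo. Direction turned for Esrrg from RGL to Peri (3.62), to -0.89 with 20 nuclei per sum and to -0.99 without w1 (5.30 without w2), and for Rarb from RGL to OPC (1.29), to -0.054 after thinning; the first rests on 1 nucleus. In the authors' mean log2 expression, which lacks Nr3c2, 6 of the 9 others had the same highest trajectory cluster as in CPM.

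Scaling moved the median of all genes from Astro to RGL from 0.27 with TMM to 0.069 (RLE factors) and -0.001 (DESeq2), and the share of higher genes among those called from 49.7% to 34.8% and 26.3%, so the receptors called there are lower against a rising background under TMM. The share moved by over 10 percentage points in 1 comparison with RLE factors and 7 with DESeq2. From OPC to Oligo the median of all genes was -0.43.

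The library term pairs the sums that come from 1 library, and the values with no library term are those without this block. Depth limits the small clusters: the 45 Oligo nuclei held 219664 UMIs, so a count of 0 allows up to 13.7 CPM. The test of GCmat1 nuclei with against without a pseudo-time could not be fitted, as only w8 held enough of the latter.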
